A study of Homo sapiens with 4 samples.

Results

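Mitochondrial ribosomal proteins are encoded in the nucleus, made in the cytosol and imported into mitochondria. There they assemble with the mitochondrial 12S and 16S ribosomal RNAs into a small subunit, which binds the mRNA, and a large subunit, which forms peptide bonds. This ribosome translates the mRNAs of the mitochondrial genome, all of which encode subunits of the oxidative phosphorylation complexes. The genes were taken by symbol, as every gene whose symbol is MRPL or MRPS with a number and at most a final A, B or C, which leaves out the pseudogenes. This gave 78 of 60623 genes, of which 49 were MRPL genes (named for the large subunit) and 29 were MRPS genes (named for the small subunit). The rule itself uses no measured value, but it was set with earlier results of these data known.

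Their mRNA levels were measured by RNA-seq in BICR10 cells, a line established from a human head and neck cancer, after lentiviral expression of a control hairpin (shControl) or of a hairpin against YEATS2 (shYEATS2), and the comparison asks how silencing this reader of histone acylation changed them. Both groups were transduced and selected with puromycin, so they share the vector and the drug, and the sources used here do not say which of the study's YEATS2 hairpins each shYEATS2 library carried. Each group had 2 libraries, and nothing in the labels says that they came from separate cultures. The study describes its replicates in general as biological, without naming these libraries, so p-values measure the spread between these libraries, which may be technical. The total counts on genes were 47297970 and 39824898 in shControl and 24072396 and 11334133 in shYEATS2, so both shYEATS2 libraries were shallower.

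YEATS2 itself was at 66.1 and 66.7 CPM (counts scaled to a common library size with the TMM factors of edgeR) in shControl and at 29.2 and 29.1 CPM in shYEATS2, a log2 fold change of −1.19 ± 0.08 (SE). Of 10 epithelial and squamous markers, KRT17 and TP63 were under 1 CPM in every library, 5 were lower and 1 higher, and the summed level of the 10 was 212 and 213 CPM in shControl and 146 and 137 CPM in shYEATS2. The 10 fibroblast markers summed to 8853 and 8804 CPM in shControl and to 4213 and 3939 CPM in shYEATS2, with 7 lower, 1 higher and THY1 under 1 CPM throughout. The 5 immune markers were all under 1 CPM. The 5 endothelial markers summed to 35.6 and 36.6 CPM in shControl and to 18.9 and 20.2 CPM in shYEATS2, with VWF, CDH5 and TEK under 1 CPM. Of these 5, KDR was called lower, from 33.8 and 35.1 to 17.0 and 17.4 CPM, and TEK higher. The mitochondrial genome took 11.3% and 11.6% of counts in shControl and 9.14% and 10.7% in shYEATS2. Many of these levels and the depth moved with the condition, and their part in the results on the ribosomal protein genes was not tested. In bulk RNA, fewer cells of a type and less RNA per cell cannot be told apart.

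More ribosomal protein genes fell than rose after YEATS2 silencing, and every change was under 2-fold. Of the 77 genes tested, 33 (42.9%) were called lower and 7 (9.09%) higher by edgeR's quasi-likelihood test at a Benjamini-Hochberg adjusted p under 0.05, and 37 were not called. Over all 17058 tested genes, 23.6% were called lower and 22.6% higher. Their log2 fold changes had a median of −0.16 and quartiles of −0.32 and 0.04, and the median was −0.01 over all tested genes. Of the 40 calls, 34 were smaller than 0.5 on the log2 scale. DESeq2 called 23 lower and 6 higher, against 17.3% and 16.5% of all tested genes, and these were all among the calls of edgeR. The groups did not overlap, with shYEATS2 lower, in 44 of the 77 genes (36.3% of all tested genes) and, with shYEATS2 higher, in 11 (35.3% of all tested genes), and they overlapped in 22.

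The balance of calls depended on the scaling. With library totals alone in place of TMM factors, the median of all tested genes moved from −0.01 to 0.13, and 19 ribosomal protein genes were called lower and 17 higher, against 15% and 31.9% of all tested genes under that scaling. Relative to the median of all tested genes, the median of the 77 genes was −0.15 under both scalings. This relative value cannot change by construction, since a scaling moves all genes by about the same amount. Log2 fold changes and medians given below that are negative and closer to 0 than this shift become positive with library totals alone, which does not apply to values taken relative to other genes. As a share of all counts on genes, the 78 genes took 0.385% and 0.376% in shControl and 0.392% and 0.384% in shYEATS2, so this unscaled share overlapped between the groups. Without shControl replicate 1, 22 genes were called lower and 6 higher, and the shares over all tested genes were lower too, at 17.8% and 15.2%. A set of 17 falls and 4 rises was called here and in each of the 17 other fits of the same table.

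**Figure D1:**
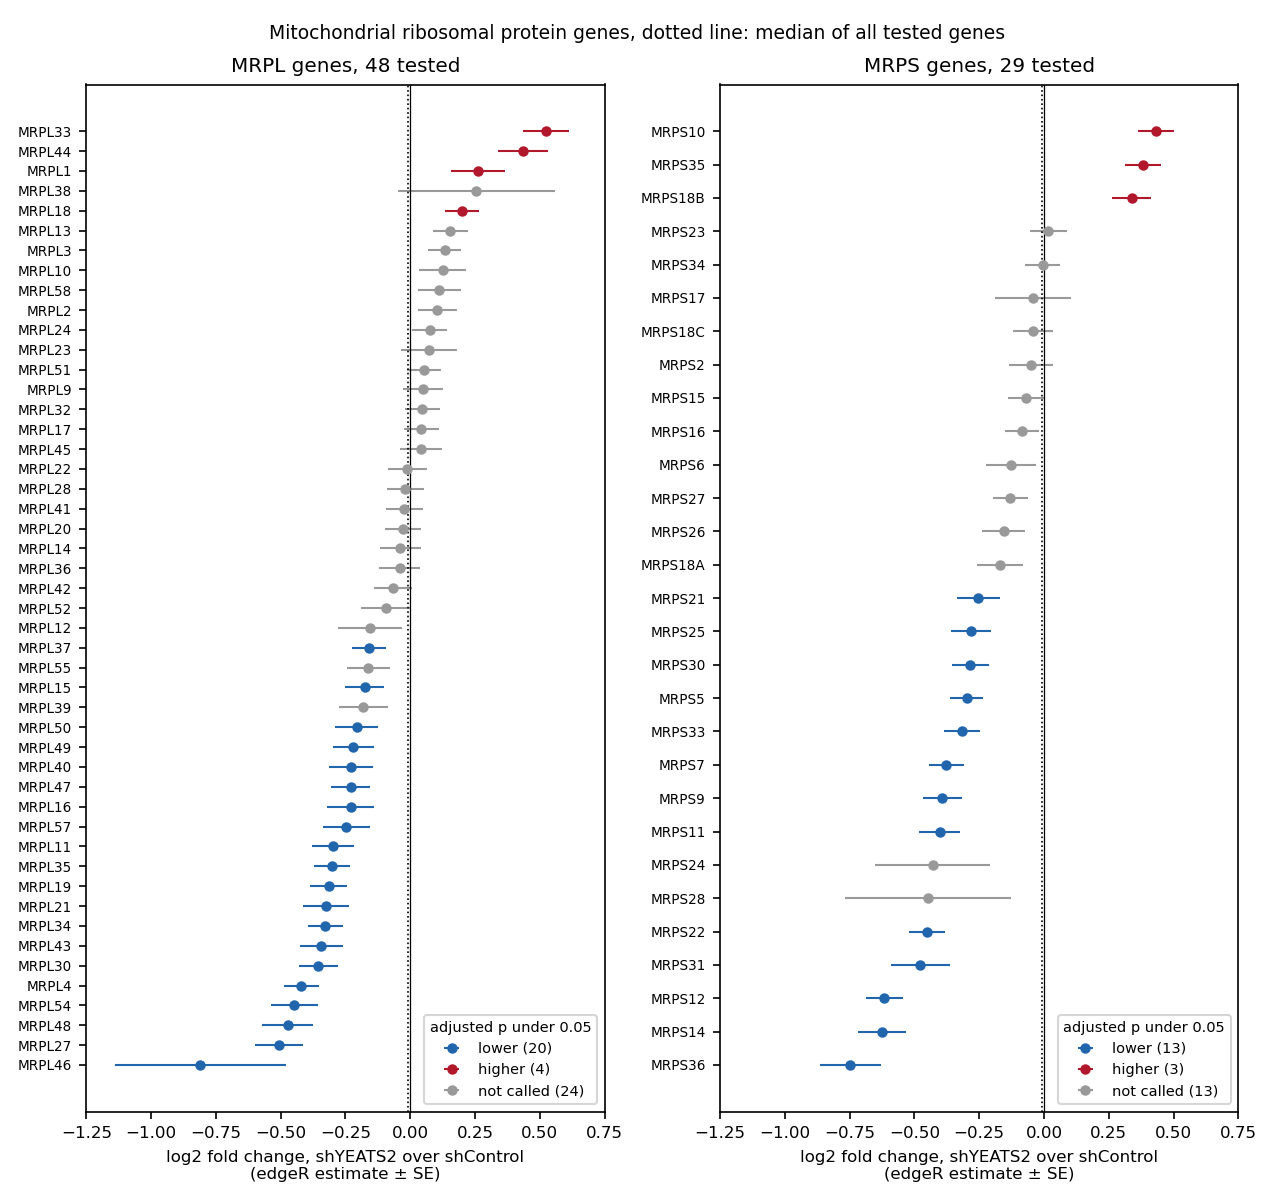
Log2 fold change (x axis, shYEATS2 over shControl, edgeR estimate with its SE as a bar) of each tested MRPL gene (left) and MRPS gene (right), coloured by call, with the median of all tested genes as a dotted line. Falls outnumber rises in both sets (20 against 4 MRPL genes, 13 against 3 MRPS genes), which turns to 9 against 14 for MRPL with library totals alone, where 15% of all tested genes are lower and 31.9% higher, and the widest bar is that of MRPL46, which had few counts.

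By median, the MRPS genes were shifted further down than the MRPL genes, while similar shares of both were called lower. Of 29 MRPS genes, 13 were lower (44.8%) and 3 higher (10.3%), with a median log2 fold change of −0.25. Of 48 tested MRPL genes, 20 were lower (41.7%) and 4 higher (8.33%), with a median of −0.08. Against the mean of the shControl libraries, the median MRPS gene stood at −0.01 and 0.01 on the log2 scale in the shControl libraries and at −0.25 and −0.26 in the shYEATS2 libraries. The median MRPL gene stood at 0.04 and −0.04 in shControl and at −0.08 and −0.13 in shYEATS2. The gap between the groups was therefore much wider than the gap between replicates for MRPS, and close to it for MRPL. With library totals alone, the MRPL median changed sign to 0.05 (9 lower, 14 higher), and the MRPS median was −0.12 (10 lower, 3 higher), while the median of all tested genes was 0.13 with 15% lower and 31.9% higher. Without shControl replicate 1, the medians were −0.02 for MRPL, with 10 genes lower, and −0.16 for MRPS. Without shControl replicate 2, 13 MRPL genes were lower, and 18.3% of all tested genes were lower and 16.3% higher. DESeq2 called 11 MRPL genes lower and 3 higher, and 12 MRPS genes lower and 3 higher. Without genes of low level or overlapping exons, the gap between the medians was narrower, as given in the section on processing. The difference between both sets was not tested, since genes are not replicates of a condition.

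The letter in the symbol does not always give the subunit. In the structure of the human mitochondrial ribosome, the products of MRPS30 (mL65) and MRPS18A (mL66) sit in the large subunit, and MRPS36 encodes a component of the alpha-ketoglutarate dehydrogenase complex and not a ribosomal protein. Sorted by structure, the large subunit had 21 lower and 4 higher of 50 tested genes with a median log2 fold change of −0.12, and the small subunit had 11 lower and 3 higher of 26 with a median of −0.20. The gap between the medians was thus narrower than by symbol, and the shares called lower were 42% and 42.3%.

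Summed over genes, the level per length fell less in MRPL than in MRPS. CPM per kilobase of annotated exons summed to 1223 and 1170 over the MRPL genes in shControl and to 1164 and 1151 in shYEATS2. For the MRPS genes the sums were 554 and 557 in shControl and 522 and 508 in shYEATS2. The groups did not overlap for either sum, but the difference of the means for MRPL was smaller than the distance between the shControl replicates. The group means were 1197 ± 37.2 and 1158 ± 9.2 CPM per kilobase for MRPL and 556 ± 1.8 and 515 ± 10.2 for MRPS (SD, n = 2). The MRPS share of the summed level was 31.2% and 32.3% in shControl and 31.0% and 30.6% in shYEATS2, a difference of −0.93 percentage points, smaller than the 1.05 between the shControl replicates. With canonical transcript lengths the difference was −1.76 points against 0.974 between these replicates, and without length it was −1.37 against 0.746, so whether it exceeded the replicate distance depended on the length used. These sums and shares were not tested, and permuting 2 against 2 libraries in an exact test yields a two-sided p of 0.333 at best.

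**Figure D2:**
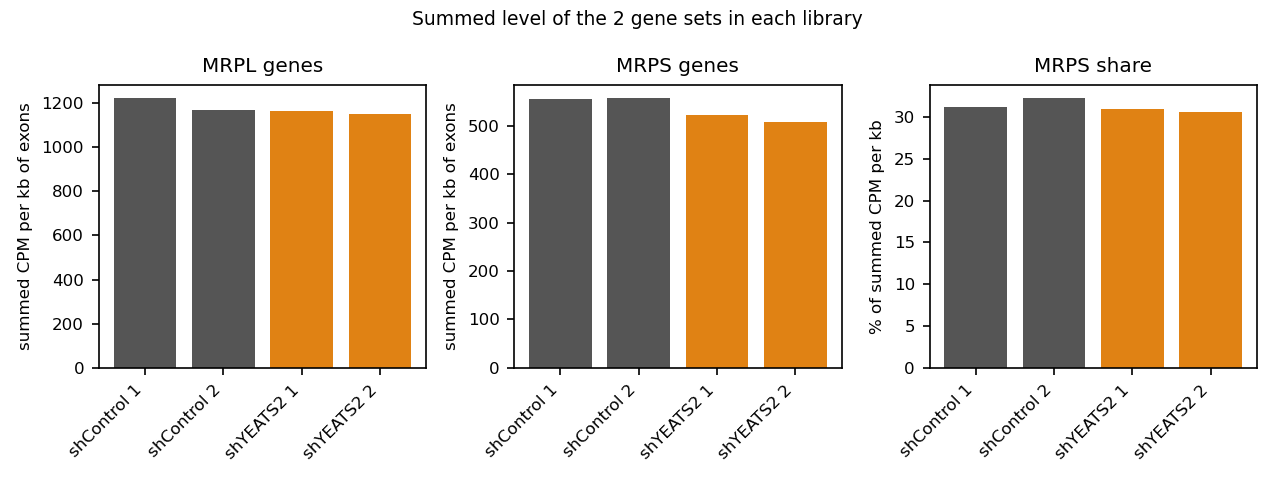
Summed CPM per kilobase of exons (y axis) of the MRPL genes (left) and of the MRPS genes (middle), and the MRPS share of both sums in % (right), with 1 bar for each library, grey for shControl and orange for shYEATS2. The MRPS sum is 554 and 557 in shControl and 522 and 508 in shYEATS2, while the share stays between 30.6% and 32.3%.

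Although the proteins assemble in fixed proportions, their mRNAs covered a wide range. In shControl, the median tested gene was at 16.4 CPM per kilobase, the middle range ran from 9.83 to 29.0, and 67 of the 77 lay within 4-fold of the median. Per kilobase of annotated exons, the highest MRPL genes were MRPL41 (119 CPM per kilobase), MRPL51 (78.8) and MRPL3 (64.7). The highest MRPS genes were MRPS34 (83.5), MRPS12 (46.0) and MRPS16 (40.7). Of these 6, only MRPS12 was called, and MRPL3, the protein uL3 at the core of the large subunit, had a log2 fold change of 0.13 ± 0.06 (adjusted p = 0.0797, edgeR). MRPL3 was called higher with library totals alone (0.27). These levels and ranks depend on the length used, here the union of annotated exons. This union is much longer than the canonical transcript in MRPS22 (16385 against 1205 bases) and MRPS7 (3327 against 1204), both called lower. In MRPL34, also called lower, it is 1523 against 764 bases. The genes took short transcripts, with a median canonical length of 1242 bases against 3400.5 for all tested protein-coding genes. Across the 77 genes, the log2 fold change had little relation to transcript length (Pearson r = −0.04, Spearman rho = −0.02), to exonic GC content (0.05 and 0.08) or to the shControl level (0.16 and 0.11). These are descriptions across genes that share the same 4 libraries.

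The genes with the lowest values share exons with a neighbour on the same strand, but genes with high values can do so too. MRPS5, for instance, was at 116 and 114 CPM in shControl with a same-strand overlap of 23.3%. MRPL53 had 0 counts in every library, and 72.8% of its exonic bases overlap CCDC142, so read pairs there could have been set aside as ambiguous by the counting (4.31% to 4.61% of tallied pairs per library were ambiguous). It was not tested. MRPL46, with a same-strand overlap of 11.3%, was at 1.52 and 1.93 CPM in shControl and at 0.908 and 1.10 CPM in shYEATS2. These levels came from 69, 73, 23 and 13 counts. The log2 fold change of MRPL46, −0.81 ± 0.33, was the most negative of all members, but the call (adjusted p = 0.0372, edgeR) was lost in DESeq2 (adjusted p = 0.21) and in 7 other fits. MRPL38, MRPS28 and MRPS24 were at 1.16 to 3.46 CPM in shControl and at 1.03 to 2.80 CPM in shYEATS2 and were not called, with same-strand overlaps of 41.1%, 35.8% and 23.2%. Such values are uncertain as levels of these mRNAs. The libraries were made with a stranded mRNA kit, but the strand setting of the counting is not stated. Whether reads of genes on the opposite strand were kept apart is therefore not known. Such genes cover over 20% of the exonic bases of MRPL4, MRPL9, MRPL43, MRPL51, MRPL53, MRPS9, MRPS18A, MRPS18C, MRPS22, MRPS25 and MRPS34.

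Among the MRPL genes, the largest falls with at least 10 CPM and no overlap between groups were in MRPL27, MRPL48, MRPL54, MRPL4, MRPL30 and MRPL43. MRPL27 (bL27, a protein that reaches towards the peptidyl transferase centre) was at 40.7 and 33.1 CPM in shControl and at 27.2 and 24.4 CPM in shYEATS2. It fell by 29.6%, with a log2 fold change of −0.51 ± 0.09 (adjusted p = 8.88e-06, edgeR). MRPL48 (mL48, a mitochondria-specific protein of the central protuberance) was at 24.5 and 22.9 CPM against 16.4 and 18.2 CPM, a log2 fold change of −0.47 ± 0.10. MRPL54 (mL54), near the stalk that recruits translation factors, was at 30.7 and 28.6 CPM against 21.4 and 22.3 CPM, or −0.45 ± 0.09. In each of these genes, the shYEATS2 libraries lay close together and below both shControl libraries.

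MRPL4 (uL4, which lines the exit tunnel) was the most abundant of these 6, at 120 and 132 CPM in shControl and at 99.4 and 87.6 CPM in shYEATS2 (−0.42 ± 0.07). MRPL30 (uL30) was at 52.0 and 52.5 CPM against 41.3 and 40.3 CPM (−0.35 ± 0.08). Its replicates were almost equal, so a fall of 21.8% stood well outside their spread, although 11.8% of its exonic bases are shared with same-strand genes. MRPL43 (mL43) was at 41.5 and 37.8 CPM against 33.0 and 28.8 CPM (−0.34 ± 0.08), and its call was lost without shControl replicate 1 (adjusted p = 0.0563, edgeR).

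Only 4 MRPL genes rose. MRPL33 (bL33) was at 39.0 and 31.5 CPM in shControl and at 47.8 and 54.7 CPM in shYEATS2, a log2 fold change of 0.52 ± 0.09 (adjusted p = 5.62e-06, edgeR) and the largest rise of any member. Its exons overlap those of BABAM2 on the same strand over 21.1% of their length, and without shYEATS2 replicate 2 the adjusted p of edgeR was 0.0863. MRPL44 (mL44, which has an RNase III fold) was at 17.9 and 17.4 CPM against 23.4 and 24.6 CPM, or 0.43 ± 0.10, and was called higher in every fit. MRPL1 (uL1, of the stalk beside the exit site) was at 14.6 and 17.3 CPM against 18.7 and 19.6 CPM, and MRPL18 (uL18, of the central protuberance) was at 89.4 and 83.6 CPM against 100 and 98.8 CPM. Their rises of 0.26 ± 0.10 and 0.20 ± 0.07 were small, and each lost its call in some fits, MRPL1 with DESeq2 (adjusted p = 0.148) and MRPL18 without shControl replicate 2 (adjusted p = 0.264, edgeR).

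**Figure D3:**
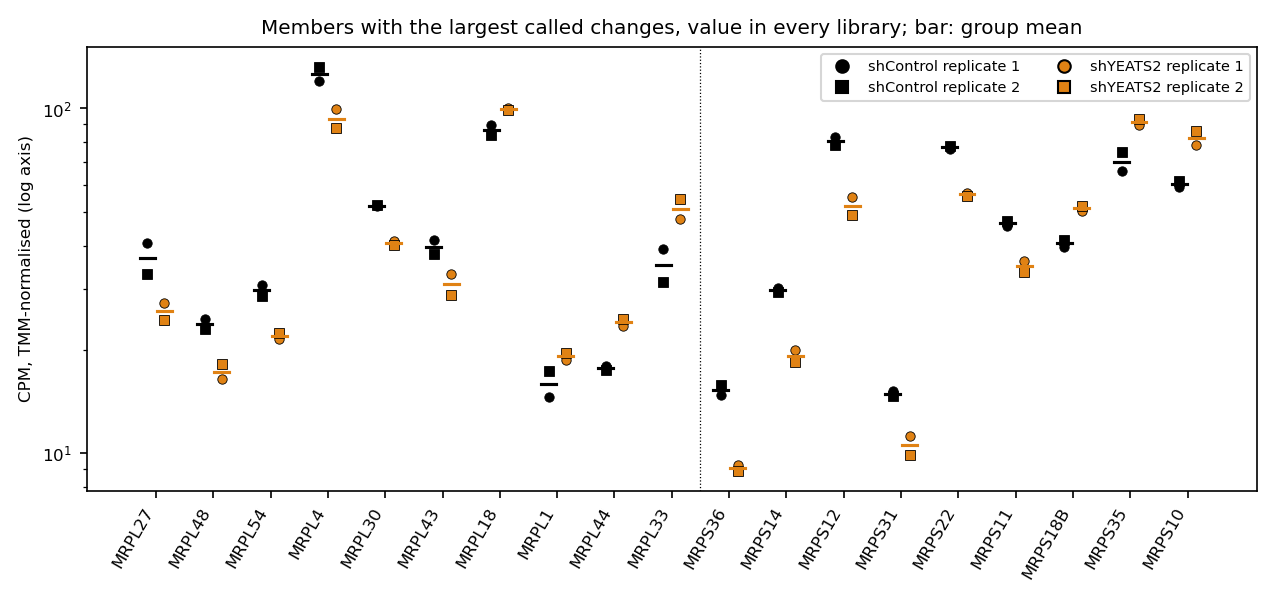
TMM-normalised CPM on a log axis (y axis) of the 10 MRPL and 9 MRPS genes with the largest called changes (x axis, MRPL left of the dotted line), with a point for each library (black shControl, orange shYEATS2) and a bar at each group mean. In each gene both shYEATS2 points lie on the same side of both shControl points, from 9.24 and 8.91 against 14.8 and 15.8 CPM in MRPS36 to 99.4 and 87.6 against 120 and 132 CPM in MRPL4.

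Among the MRPS genes, the falls were larger. MRPS36, which by structure is no ribosomal protein, was at 14.8 and 15.8 CPM in shControl and at 9.24 and 8.91 CPM in shYEATS2, a log2 fold change of −0.75 ± 0.12 (adjusted p = 2.09e-07, edgeR). MRPS14 (uS14, in the head of the small subunit) was at 30.2 and 29.4 CPM against 19.9 and 18.4 CPM and fell by 35.1% (−0.62 ± 0.09). MRPS12 (uS12, part of the decoding centre, chromosome 19, 38930944 to 38933168 in GRCh38) was at 82.9 and 78.5 CPM against 55.3 and 49.1 CPM and fell by 34.8% (−0.62 ± 0.07, adjusted p = 4.32e-11, edgeR). MRPS12 combined a high level with a large fall, and had the lowest adjusted p of all members. Both MRPS14 and MRPS12 were called lower in every fit.

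MRPS31 (mS31) was at 15.2 and 14.6 CPM in shControl and at 11.2 and 9.93 CPM in shYEATS2 (−0.48 ± 0.11). MRPS22 (mS22, chromosome 3, 139005806 to 139360497) was at 76.4 and 78.1 CPM against 57.0 and 55.8 CPM, a log2 fold change of −0.45 ± 0.07 (adjusted p = 1.29e-07, edgeR). MRPS11 (uS11, on the platform) was at 45.6 and 47.2 CPM against 36.2 and 33.5 CPM (−0.40 ± 0.08). In all 3 genes the distance between the groups was several times that between replicates.

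The 3 rising MRPS genes rose by about as much as MRPL44. MRPS10 (uS10, in the head) was at 59.3 and 61.8 CPM in shControl and at 78.1 and 86.1 CPM in shYEATS2, a log2 fold change of 0.43 ± 0.07 (adjusted p = 2.9e-07, edgeR). MRPS35 (mS35) was at 65.7 and 74.6 CPM against 89.8 and 93.2 CPM (0.38 ± 0.07), and MRPS18B (mS40) was at 39.7 and 41.5 CPM against 50.6 and 52.3 CPM (0.34 ± 0.08). All 3 were called higher in every fit. MRPS18B is 1 of 3 paralogs of the bacterial protein S18, and the other two were not called: MRPS18A was at 29.4 and 29.6 CPM against 27.4 and 24.4 CPM (−0.17 ± 0.09), and MRPS18C was at 48.1 and 50.9 CPM against 45 and 51.9 CPM (−0.04 ± 0.08). Only in MRPS18C did the groups overlap.

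Other members are known for a role of their own. In the stalk that recruits translation factors, MRPL11 (uL11) fell from 38.8 and 37.3 to 31.1 and 30.7 CPM (−0.30 ± 0.08), a call lost with library totals alone (adjusted p = 0.0913, edgeR) and without shControl replicate 1 (0.0642). MRPL10 (uL10) was at 0.13 ± 0.09 and MRPL12 (bL12), with 69.5% of its exonic bases shared with a same-strand gene, at −0.16 ± 0.12 on the log2 scale, and neither was called. MRPL45, which holds the large subunit at the inner membrane, was at 34.2 and 34.6 CPM in shControl and at 36.2 and 34.4 CPM in shYEATS2 (0.04 ± 0.08). Of the 6 genes at the tunnel exit, only MRPL47 was called (lower, not by DESeq2), and their median was 0.04. Of the 8 genes of the central protuberance, 4 were lower (2 with DESeq2) and 1 higher with a median of −0.20. MRPL58, which retains a release factor fold and hydrolyses peptidyl-tRNA, was at 0.11 ± 0.08, and MRPS30 fell by 17.9% (−0.29 ± 0.07). MRPS25 (mS25), among the lowest at 2.57 CPM per kilobase of annotated exons, fell from 46.6 and 47.4 to 38.7 and 38.5 CPM (−0.28 ± 0.08). Its annotated exons cover 18309 bases, against 4572 in its canonical transcript. With library totals alone neither MRPS30 (adjusted p = 0.0714, edgeR) nor MRPS25 (0.103) was called. By origin, 18 of 46 proteins with a bacterial homologue were lower and 4 higher (median −0.11), and 14 of 30 tested mitochondria-specific proteins were lower and 3 higher (median −0.17), so both classes held falls and rises. DESeq2 called 14 and 8 lower, and library totals alone gave 12 lower and 12 higher and 6 lower and 5 higher.

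Many of these genes start next to another gene on the opposite strand. A head-to-head partner, defined as a protein-coding gene on the other strand whose start lies within 1000 bases, was found for 26 of the 78 members (33.3%), against 9.72% of all protein-coding genes and 13.4% of the tested ones. The 26 had 15 falls and 2 rises with a median log2 fold change of −0.21, and the other 51 tested genes had 18 falls and 5 rises with a median of −0.13. With DESeq2 the 26 had 8 falls and 2 rises, and with library totals alone 7 and 7. Of the 25 distinct pairs, both genes were called in the same direction in 6 and in opposite directions in 4. Of the 24 with both genes tested these are 25% and 16.7%, against 14.4% and 7.51% of 799 other head-to-head pairs. With DESeq2 they were 2 and 2 (8.33% each, against 8.39% and 4.01% of the other pairs). With library totals alone they were 4 and 4 (16.7% each, against 16.9% and 6.76% of the other pairs). MRPL46 and MRPS11 are themselves such a pair, 320 bases apart, and both were lower.

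The opposite pairs included MRPL43 and TWNK, the helicase of mitochondrial DNA, which start 46 bases apart. TWNK was at 24.5 and 23.4 CPM in shControl and at 34.0 and 39.4 CPM in shYEATS2, a rise of 0.60 ± 0.09 on the log2 scale (adjusted p = 3.06e-08, edgeR), whereas MRPL43 fell. The other opposite pairs were MRPS7 with GGA3 (−0.38 and 0.30), MRPL57 with SKA3 (−0.25 and 0.29) and MRPL40 with HIRA (−0.23 and 0.48). MRPL18 with TCP1 (0.20 and 0.16) and MRPS18B with PPP1R10 (0.34 and 0.20) rose together. EME1, APBA3, MITD1 and SARS2, the partners of MRPL27, MRPL54, MRPL30 and MRPS12, were not called, at 0.17, 0.20, −0.07 and −0.44. A shared start region was thus found with either relation.

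**Figure D4:**
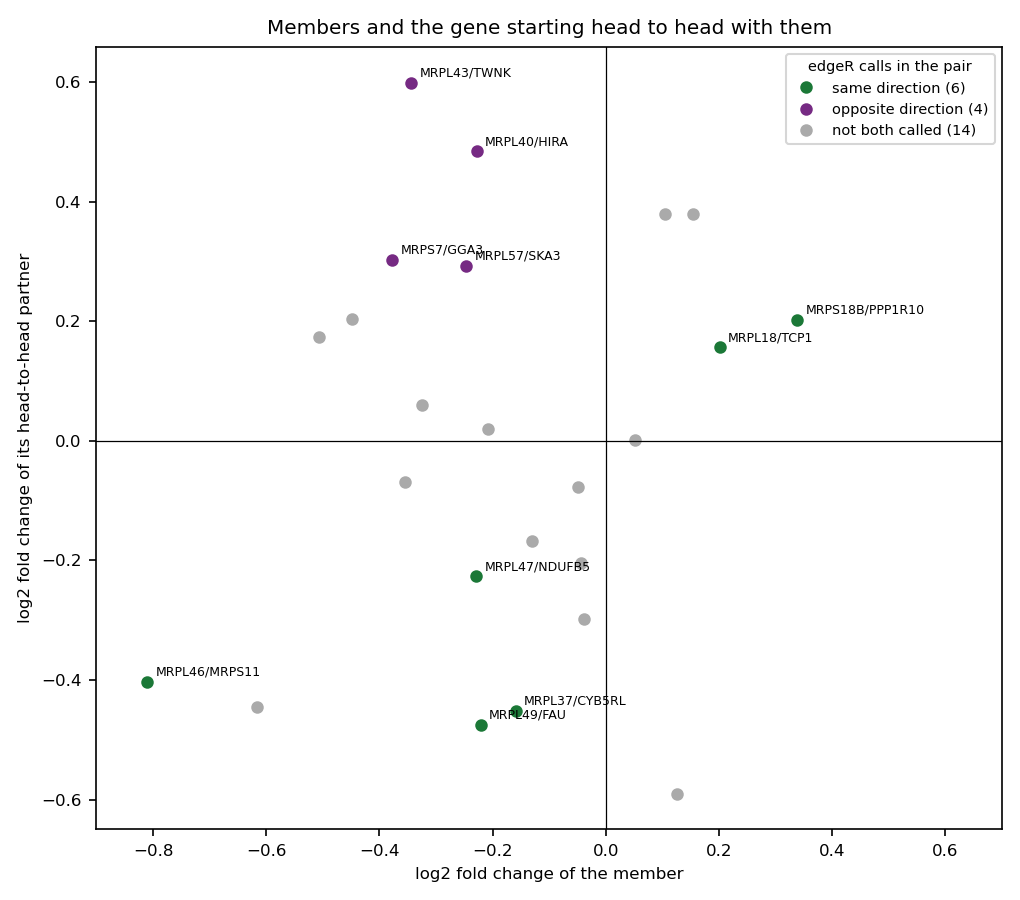
Log2 fold change of a member (x axis) against that of its head-to-head partner (y axis) for the 24 pairs with both genes tested, coloured by whether both genes were called in the same direction, in opposite directions or not both. The 6 same-direction pairs lie in the lower left and upper right, and the 4 opposite pairs in the upper left, with MRPL43 and TWNK farthest from 0 on the y axis.

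The promoters of these genes often hold an ETS motif. Promoter windows from RefSeq (GRCh38.p14, 250 bases before to 50 after the start) were available for 69 of the 78 members and for 11001 tested genes, and 4 short motifs were searched on both strands. The ETS motif (CCGGAAG or its complement) was found in 30 of the 69 windows (43.5%) against 18.9% of the tested genes. The YY1 motif (AAGATGGC) was found in 21 (30.4%) against 5.5%. Before the start itself it was found in 5 (7.25%) against 1.81%, and its letters can include a start codon. The SP1 motif (GGGCGG) was found in 41 (59.4%) against 71.6%, and the NRF1 motif (GCGCATGC or GCATGCGC) in 6 (8.7%) against 5.58%. Among the members called lower, 13 of 29 windows held the ETS motif, compared with 3 of 7 among those called higher and 13 of 32 among those not called. The NRF1 motif was in 0 of 29, 1 of 7 and 5 of 32. A match to these letters is a description and does not show that a factor binds.

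The 90 bases before the start are shown for 3 falling and 3 rising members among the largest changes, chosen because this stretch lies outside annotated exons and holds a searched motif, which is in capitals. They are MRPS14 (chr1:175023426-175023515, minus strand), MRPS31 (chr13:40771191-40771280, minus strand), MRPL54 (chr19:3762592-3762681, plus strand), MRPS10 (chr6:42217862-42217951, minus strand), MRPS18B (chr6:30617750-30617839, plus strand) and MRPL18 (chr6:159790377-159790466, plus strand), each written 5′ to 3′ on the strand of its gene. CCGGAAG and CTTCCGG mark the ETS motif, CCGCCC and GGGCGG the SP1 motif and GCATGCGC the NRF1 motif. The ETS motif stands before falling genes (MRPS31, MRPL54) and before rising genes (MRPS10, MRPL18).
MRPS14: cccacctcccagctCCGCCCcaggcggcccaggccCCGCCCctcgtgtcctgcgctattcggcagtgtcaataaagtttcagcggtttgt
MRPS31: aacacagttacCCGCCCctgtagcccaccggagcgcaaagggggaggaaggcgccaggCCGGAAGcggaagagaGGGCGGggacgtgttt
MRPL54: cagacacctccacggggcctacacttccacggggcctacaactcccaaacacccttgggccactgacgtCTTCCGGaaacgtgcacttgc
MRPS10: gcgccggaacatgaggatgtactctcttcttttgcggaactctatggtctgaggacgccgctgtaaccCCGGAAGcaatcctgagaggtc
MRPS18B: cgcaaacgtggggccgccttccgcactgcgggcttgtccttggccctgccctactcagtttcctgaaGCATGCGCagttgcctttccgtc
MRPL18: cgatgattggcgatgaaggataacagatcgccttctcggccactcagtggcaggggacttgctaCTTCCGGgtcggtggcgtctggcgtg

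Of 10 factors known for such promoters, 3 were lower and 3 higher. MYC rose from 70.4 and 70.4 to 159 and 133 CPM (1.06 ± 0.07 on the log2 scale), NRF1 rose from 12.8 and 12.1 to 16.7 and 15.2 CPM (0.37 ± 0.11), and the coactivator PPARGC1B fell from 50.8 and 51.5 to 32.8 and 37.8 CPM (−0.55 ± 0.08). YY1 and SP1 also fell, by 0.30 and 0.23 on the log2 scale. GABPA, the ETS factor best known at these promoters, was at −0.14 ± 0.08 and was not called.

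Other genes of the mitochondrial translation machinery are given here beside the members. Of 5 mitochondrial ribosomal proteins with other symbols, AURKAIP1 (mS38) fell from 130 and 119 to 91.6 and 88.0 CPM (−0.47 ± 0.07) and CHCHD1 (mS37) from 31.4 and 31.0 to 24.4 and 24.5 CPM (−0.35 ± 0.09). DAP3 (mS29) rose from 109 and 115 to 131 and 127 CPM (0.21 ± 0.06), and PTCD3 (mS39, 0.01) and GADD45GIP1 (mL64, −0.05) were not called. Of the ribosomal RNAs, measured here in libraries enriched for mRNA, 16S (MT-RNR2) was lower at −0.17 ± 0.07, a value of −0.03 with library totals alone, and 12S (MT-RNR1) was at 0.02 ± 0.06.

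Of 30 genes for assembly of the ribosome and modification of its RNA, 4 were lower (13.3%) and 6 higher (20.0%), no more than over all tested genes (23.6% and 22.6%), with a median of −0.05. DESeq2 called 2 lower and 1 higher. The largest changes were in RBFA, a factor that matures the small subunit (−0.90 ± 0.13), and in the GTPases MTG1 (−0.55 ± 0.17, not called by DESeq2) and GTPBP10 (0.47 ± 0.09). Of 18 tested genes for translation factors and related proteins, 6 were lower (33.3%) and 1 higher (5.56%), with a median of −0.02. With library totals alone 3 were lower and 7 higher. The largest falls were in the release factor MTRF1 (−0.39 ± 0.13, not called by DESeq2 or with library totals alone), the membrane insertase OXA1L (−0.38 ± 0.07) and the elongation factor TUFM (−0.36 ± 0.06), which was at 157 and 158 CPM in shControl and at 128 and 117 CPM in shYEATS2. Of 11 genes for copying and transcribing the mitochondrial genome or processing its RNA, 3 were lower (27.3%) and 2 higher (18.2%). The largest changes were in TWNK, POLG, the DNA polymerase (−0.37 ± 0.07), and TFB2M, a transcription factor (0.32 ± 0.09).

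Other sets with fixed membership were shifted further. Of 80 tested cytosolic ribosomal proteins, 70 were lower and 1 higher, with a median log2 fold change of −0.48. Of 38 genes with an NDUF symbol, most but not all of which encode subunits of respiratory complex I, 29 were lower. The others were not called, and the median was −0.37. The quartiles of the mitochondrial ribosomal proteins (−0.32 and 0.04) and of the cytosolic ones (−0.61 and −0.31) spanned ranges that only just met. With library totals alone, the cytosolic and NDUF medians were −0.34 and −0.24, and that of the mitochondrial ribosomal proteins was −0.02. The order of the 3 medians cannot change with the scaling by construction, since a scaling moves all genes by about the same amount.

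**Figure D5:**
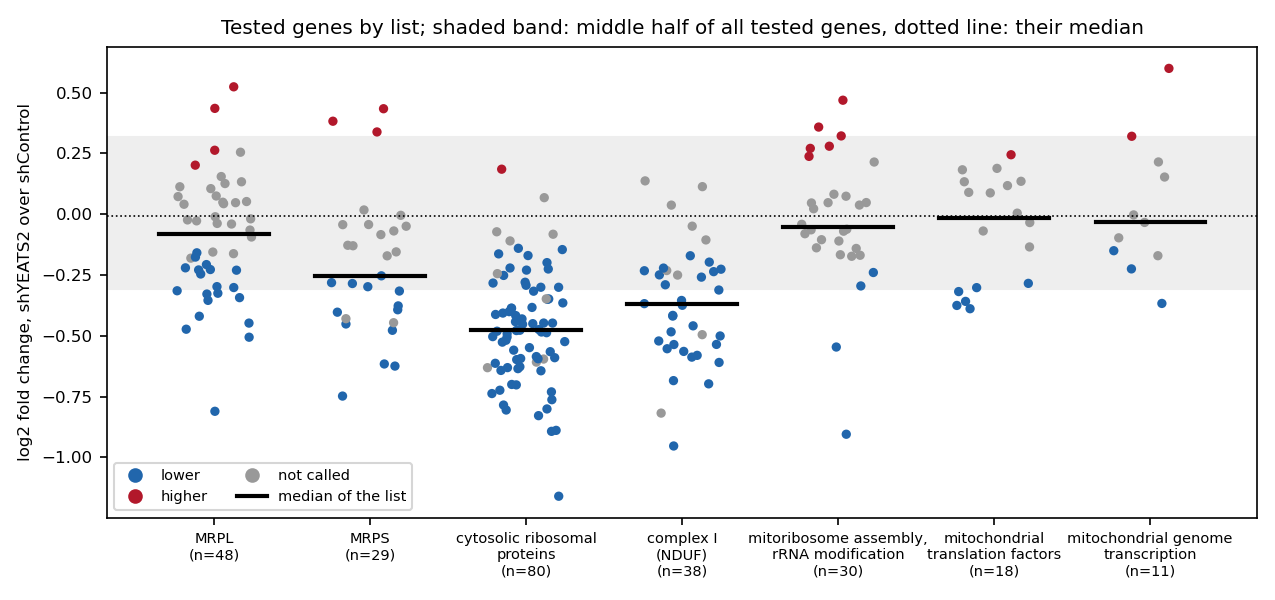
Log2 fold change (y axis, shYEATS2 over shControl) of every tested gene in 7 lists (x axis), coloured by edgeR call, with a bar at each list's median and a band between the quartiles of all tested genes. The medians are −0.08 for MRPL, −0.25 for MRPS, −0.48 for cytosolic ribosomal proteins and −0.37 for complex I, while those of the 3 lists on assembly, translation factors and transcription lie between −0.05 and −0.02.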

How the data were processed

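The authors aligned pairs of 150 bp reads to GRCh38 with STAR, counted pairs per gene with HTSeq and deposited whole-number counts, without normalization. Which annotation release and which strand option were used is not given in the sources used here. Tallies of pairs given to no gene (8.5%, 7.95%, 7.64% and 8.57% outside genes) were left out of totals and tests. Positions, lengths and overlaps came from GENCODE release 44, which held 60295 of the 60623 identifiers.

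Genes kept by filterByExpr were scaled by TMM and tested with the quasi-likelihood test of edgeR 4.0.16 (robust) in R 4.3.3, with DESeq2 1.42.0, the study's tool, and limma 3.58.1 (voom) as alternatives. The scripts were tested on simulated data. CPM values use TMM-scaled totals, each ± beside a log2 fold change is its SE, and CPM per kilobase divides by the union of annotated exons. The median SE over the members was 0.08. Counting intervals are not given, since the SE covers both counting and replicate spread. Replicates differed by more than counting noise (shControl had a chi-square of 6.39 and shYEATS2 of 5.82 for each degree of freedom).

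The genes named are, in MRPL and MRPS each, the 6 largest falls and rises called with at least 10 CPM and no overlap between groups, the 3 highest and 3 lowest per length, members with a known role, untested members, the partners of the largest changes, and the 3 largest called changes of each list and all genes of a list of up to 5. Others (the further partners of opposite or same-direction pairs, single cell type markers, YY1, SP1, GABPA and MRPL47) were named after their values were seen. The members and lists were chosen with earlier results of these data known. The alternatives were other scalings, filters and tests, a replicate block, offsets for length and GC content, thinned counts, no mitochondrial genome, stricter thresholds, each library left out, and the subunit by structure. Protein sequences were not used here.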

Additional observations from a re-analysis of the deposited data

How the results depend on the processing

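The counts and medians of the MRPL and MRPS genes that moved beyond 1.5 times or beyond the replicate spread are given here. The MRPL genes called lower (20) were 9 with library totals alone, 11 with DESeq2, 13 with counts thinned to the smallest total, 12 at an adjusted p under 0.01 and from 10 to 20 with each library left out. The MRPL genes called higher (4) were 14 with library totals and 2 without a filter. With a minimum change of 2-fold, 0 MRPL and 0 MRPS genes were called in either direction. The MRPL median of −0.08 was 0.054 with library totals, −0.13 without a filter, −0.13 without genes of low level or overlapping exons (added after seeing the data) and from −0.14 to −0.019 with each library left out. The MRPS median of −0.25 was −0.12 with library totals, −0.24 with upper-quartile factors, −0.30 without a filter, −0.20 by structure, −0.17 without genes of low level or overlapping exons and from −0.27 to −0.16 with each library left out. Without genes of low level or overlapping exons, the medians of −0.13 for MRPL and −0.17 for MRPS thus lay closer together than those of all members. The difference in the MRPS share of −0.93 percentage points was −1.76 with canonical transcript lengths (added after seeing the data), and it cannot change with the scaling by construction. The causes were not tested. For smaller groups only DESeq2 and library totals were run. The large subunit by structure (21 lower, 4 higher) had 12 and 3 with DESeq2 and 9 and 14 with library totals. The genes of genome copying, transcription and RNA processing (3 and 2) had 2 and 2, and 1 and 4.

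Some named members near 0 changed sign. MRPL41 was 0.11 with library totals, 0.19 with length and GC offsets, 0.19 with the block added, 0.053 without shControl replicate 1 and 0.037 without shYEATS2 replicate 2. MRPL51 was −0.0048 with the offsets, −0.0043 with the block added and −0.014 without shControl replicate 2, and MRPL38 ranged from −0.18 without shYEATS2 replicate 1 to 0.55 without shControl replicate 1. MRPS34 was 0.0016 with DESeq2's size factors, 0.13 with library totals, 0.0079 with upper quartiles, 4.68e-05 with limma-voom, 0.12 and 0.13 with the offsets without and with the block, 0.023 with thinned counts, 0.024 without shControl replicate 2 and 0.082 without shYEATS2 replicate 2. MRPS16 was 0.050 with library totals. MRPL45 was −0.0074 without a filter, −0.029 with the offsets, −0.031 with the block added and from −0.017 without shYEATS2 replicate 1 to 0.066 without shYEATS2 replicate 2. MRPL10 ranged from −0.12 without shYEATS2 replicate 1 to 0.26 without shYEATS2 replicate 2. MRPS18C was 0.091 with library totals, 0.00049 with thinned counts and 0.057 without shYEATS2 replicate 1. None of the 40 called members changed sign under these fits.

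The replicate numbers gave no pairing, since the deviations of same-numbered libraries had a correlation of −0.00042. A replicate block gave 32 members lower and 9 higher, with medians of −0.08 for MRPL and −0.26 for MRPS, and MRPL46 lost its call. Where a library was left out, its group's lone sample was assumed to vary like the other group. At these depths the smallest called change at 10 CPM or more was −0.16 (MRPL37), and no smaller one was called.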

Other observations

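Calls over all genes differed between chromosomes, and the members on 4 of them are described here. On chromosome 6, 12.8% of the 892 tested genes other than members were lower and 32.0% higher, with a median log2 fold change of 0.15. It carries 6 members, of which 3 were higher (MRPS10, MRPS18B and MRPL18) and the others not called. On chromosomes 11, 13 and 15, the other tested genes had medians of −0.14, −0.24 and −0.27, with 33.8%, 39.4% and 39.4% lower. These chromosomes carry 11 members, of which 9 were lower and the others not called. MRPL48, MRPS31, MRPS11 and MRPL46 were among the 9. DESeq2 did not call MRPL16, MRPL46, MRPL49 and MRPL57 of them. With library totals alone the calls of these genes and of MRPL11 and MRPL21 were lost, and MRPL17, on chromosome 11, was called higher. On the remaining chromosomes, 24 of 60 tested members were lower and 4 higher, with a median of −0.14. These chromosomes were picked after their values were seen.

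Relative to the median of the other tested genes on the same chromosome, the median of the members was −0.13, that of MRPL −0.07 and that of MRPS −0.24, and 55 of the 77 lay below it. The members of chromosomes 11, 13 and 15 had a median of −0.30 before and −0.13 after this subtraction, and those of chromosome 6 had 0.15 before and 0.0025 after it. The part of the chromosome in single calls was not tested.

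The 75 pseudogene rows with an MRPL or MRPS symbol summed to 5.01 to 5.92 CPM in each library, and the groups overlapped.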
